A study of Mus musculus with 6 samples.

Results

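Long intergenic noncoding RNA (lincRNA) genes were followed in whole livers of Fgf18 f/f and Fgf18 ΔHSC mice after hepatic ischemia-reperfusion injury (IRI). The genes were chosen as the rows of the deposited expression table whose gene type was lincRNA and whose mean reached 0.5 TPM in either genotype. TPM, a length-corrected share of all transcripts, is a read count divided by the length of the joined exons and scaled to the same total in each liver. The rule left 82 of 175 lincRNA rows, in a table of 3201 rows.

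Whole livers of 3 mice per genotype were sequenced, each with 1 h under the clamp and 6 h of restored flow. In Fgf18 ΔHSC mice, Cre driven by the GFAP promoter removes floxed Fgf18 in hepatic stellate cells (HSCs), the pericyte-like cells behind the sinusoidal endothelium, and Fgf18 f/f mice carried the floxed alleles. Both strains had a C57BL/6 background, and both groups had the same clamping of the vessels to the left and middle lobes. There was no sham-operated group among these livers, so every level below is a level after reperfusion. The labels of the f/f livers give the treatment where the genotype should stand, and that genotype was taken from the study's text. The study describes its mice as male. Their age, and whether the f/f mice carried Cre, are not given in the sources used here. Fgf18 itself was not analysed here, so nothing here tests the genotype labels.

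LincRNAs are transcripts longer than small RNAs that are capped, spliced and polyadenylated like messenger RNAs but hold no accepted protein-coding frame. Most are made at low level and in few cell types. Some act near their own gene, some host microRNAs in their introns or exons, and for most mouse entries with a Gm or Rik name no function is known. Many entries of this class are read from a strand opposite to, or from a start shared with, a coding gene, so a level assigned to them has to be read beside that neighbour.

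The table is itself a selection. Every row had an absolute log2 fold change of at least 1 and an unadjusted p-value under 0.05 in the authors' own comparison of these same 6 livers. Direction and size of the differences below were therefore used, in effect, to choose the genes, and they are given as a description without a test. In bulk liver, fewer cells of a type and less RNA per cell cannot be told apart.

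Transcripts of 4 genes are shown as annotated by GENCODE on GRCm38, because they had large fitted differences and their names say nothing of what they are. Gm20005, Gm30692 and Gm33424 had the 3 largest fitted differences upward at a pseudocount of 0.1, and Gm32468 had the largest downward. The upward order depends on that pseudocount, since the f/f reads of these genes are few. Among the 27 genes named by rule, Gm46332 and Gm29685 passed Gm30692 and Gm33424 at a pseudocount of 0.01. The log2 fold changes of Gm30692 and Gm33424 were then 4.38 and 4.29. Other genes with few f/f reads, such as Gm11454 with 0 in each f/f liver, are not ranked here at that setting. Lower-case and capital letters mark alternating exons, starting with exon 1 in lower case.
Gm20005: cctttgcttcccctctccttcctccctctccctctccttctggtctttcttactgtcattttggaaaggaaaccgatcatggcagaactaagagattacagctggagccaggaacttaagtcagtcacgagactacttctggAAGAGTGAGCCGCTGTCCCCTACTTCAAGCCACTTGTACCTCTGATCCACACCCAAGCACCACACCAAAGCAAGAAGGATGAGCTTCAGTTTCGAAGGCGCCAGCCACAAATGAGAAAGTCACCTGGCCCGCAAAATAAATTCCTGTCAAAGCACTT
Gm30692: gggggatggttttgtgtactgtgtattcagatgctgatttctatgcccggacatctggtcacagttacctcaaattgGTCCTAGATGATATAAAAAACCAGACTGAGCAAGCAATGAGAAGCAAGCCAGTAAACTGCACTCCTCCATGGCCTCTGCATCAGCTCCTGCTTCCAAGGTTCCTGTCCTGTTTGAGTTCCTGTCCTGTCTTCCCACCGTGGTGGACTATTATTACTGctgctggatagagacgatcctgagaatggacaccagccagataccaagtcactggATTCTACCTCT
Gm33424: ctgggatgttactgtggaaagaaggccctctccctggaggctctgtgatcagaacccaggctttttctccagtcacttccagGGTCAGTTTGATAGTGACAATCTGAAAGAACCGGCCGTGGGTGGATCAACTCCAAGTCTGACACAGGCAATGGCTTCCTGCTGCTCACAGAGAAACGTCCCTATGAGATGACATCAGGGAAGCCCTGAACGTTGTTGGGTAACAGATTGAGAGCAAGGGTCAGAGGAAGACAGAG
Gm32468: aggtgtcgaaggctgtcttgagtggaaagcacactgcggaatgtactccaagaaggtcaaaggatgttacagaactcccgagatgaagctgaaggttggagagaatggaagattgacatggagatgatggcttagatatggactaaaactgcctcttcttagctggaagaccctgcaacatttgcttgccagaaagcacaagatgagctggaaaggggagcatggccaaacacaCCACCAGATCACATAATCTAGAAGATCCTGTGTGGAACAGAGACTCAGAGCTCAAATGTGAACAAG

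Gm20005 and Gm33424 are whole, with 299 and 257 nt in 2 exons each. Of Gm30692 (801 nt, 5 exons) and Gm32468 (1040 nt for the longer of 2 transcripts, 3 exons) the first 300 nt are printed. Gm20005 lies on the plus strand at chr5:149641610-149647790, and its last AATAAA, the usual polyadenylation signal, ends 17 bases before the 3′ end. Gm32468 lies on the plus strand at chr10:93084206-93093727. Gm30692 lies on the plus strand at chr8:24412179-24416937 and Gm33424 at chr13:53016202-53018185. None of the 4 shares exon bases with a coding gene, and their longest reading frames span 23, 82, 33 and 47 codons for Gm20005, Gm30692, Gm33424 and Gm32468.

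Of the 82 genes, 61 were higher and 21 were lower in ΔHSC livers. By limma on log2(TPM + 0.1), with a Benjamini-Hochberg adjusted p under 0.05 over all rows and an absolute log2 fold change above 1, 58 genes were called higher and 17 lower. Of all 3201 rows, 41.6% were called higher and 30.0% lower by the same rule. The 3 f/f and the 3 ΔHSC values did not overlap in 81 of the 82 genes, against 96.3% of all rows. These counts restate how the table was made, and nothing is read from them. The median log2 fold change of the 82 genes was 1.31, and that of all rows was 0.88. When the livers were rescaled to a common median ratio, the median of all rows moved from 0.88 to 0.19, that of the lincRNA genes moved to 0.44, and 1 gene, Gm12718, changed its sign. The calls then stood at 26 higher and 21 lower, and at 12 and 8 with a pseudocount of 1. The rescaling assumes that most rows do not differ, which a table of selected rows does not meet.

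**Figure D1:**
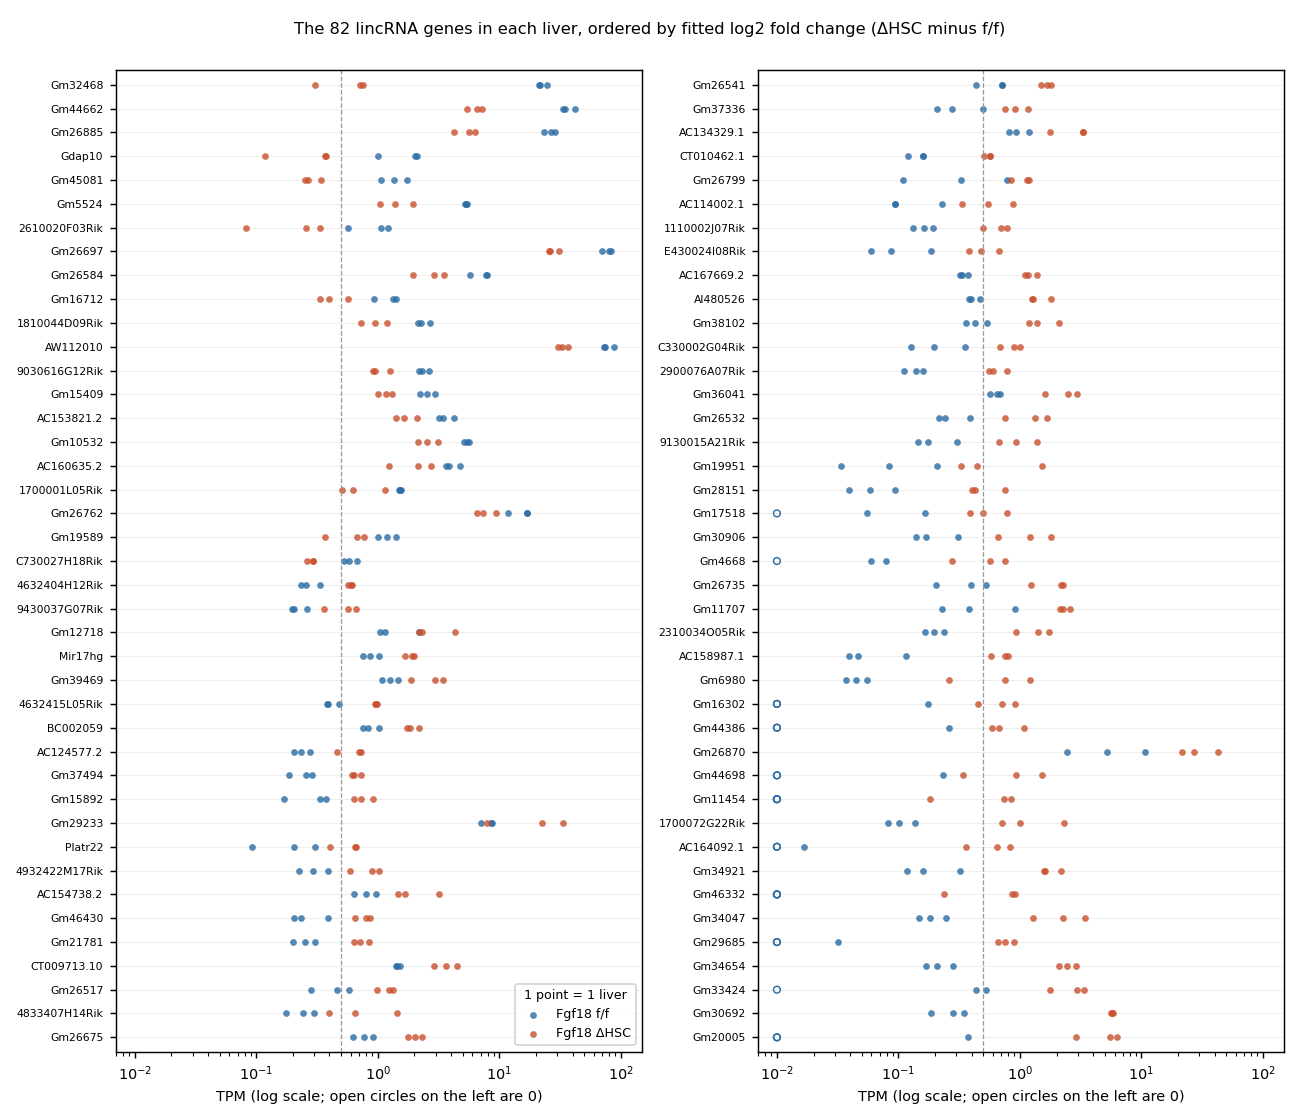
Each row is 1 lincRNA gene and each point 1 liver, with TPM on a logarithmic axis, f/f livers in blue and ΔHSC livers in red, and the genes ordered by fitted log2 fold change from the lowest (top left) to the highest (bottom right). The first 21 genes are lower in ΔHSC livers, the other 61 are higher, and Gm29233 is the gene in which a ΔHSC liver falls inside the f/f range. The dashed line marks 0.5 TPM.

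Most of these genes were near the lower end of what the libraries could measure. The median of the higher group mean was 1.30 TPM over the 82 genes and 3.12 TPM over the 1662 protein-coding rows that passed the same limit. A single read on a 1 kb gene was worth 0.0374 to 0.0555 TPM in f/f livers and 0.0482 to 0.0655 TPM in ΔHSC livers. Whole reads could be recovered for 76 of the 82 genes, and the median over genes and livers was 23 reads. In 24 genes every f/f liver had under 10 reads, and in 4 genes every liver had at least 100. In 10 genes all f/f livers together had at most 3 reads, so no fitted fold change is given for them.

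The limit of 0.5 TPM was passed by most genes through 1 genotype. ΔHSC livers alone passed it in 48 genes, f/f livers alone in 5, and both in 29. Of those 29, 13 were higher and 16 were lower in ΔHSC livers. Just inside the limit were E430024I08Rik, with group means of 0.111 and 0.513 TPM in f/f and ΔHSC livers, Gm28151, with 0.0640 and 0.529 TPM, and 9430037G07Rik, with 0.222 and 0.530 TPM. Just outside were Gm16194, with 0.0845 and 0.497 TPM, 2810405F17Rik, with 0.102 and 0.492 TPM, and B230217O12Rik, with 0.0641 and 0.474 TPM. The genes on both sides of the limit had similar levels, and all 6 were higher in ΔHSC livers.

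Direction went with level. Among the 34 genes whose higher group mean was 0.5 to 1 TPM, 32 were higher in ΔHSC livers, among the 36 genes of 1 to 5 TPM 26 were, and among the 12 genes of at least 5 TPM 3 were. Protein-coding rows ran the same way, with 84.4%, 68.6% and 23.2% higher in the 3 classes. The summed TPM of the 21 lower genes was 290 to 303 in f/f livers and 89.0 to 102 in ΔHSC livers. The summed TPM of the 61 higher genes was 29.2 to 38.9 in f/f livers and 118 to 155 in ΔHSC livers. The 5 most abundant genes took 67.8% of the lincRNA TPM in f/f livers and 44.6% in ΔHSC livers.

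Gm32468 had the largest fitted difference of the 82 genes. It measured 21.2, 21.4 and 24.6 TPM in f/f livers and 0.717, 0.304 and 0.752 TPM in ΔHSC livers, with means of 22.4 ± 1.90 and 0.591 ± 0.249 (SD, n = 3). In reads these were 610, 512 and 476 against 16, 5 and 16. All f/f livers were close together, and no ΔHSC liver came near them. The fitted log2 fold change was -5.10 (SE 0.28). The nearest coding gene, Cfap54, which encodes a protein of motile cilia, starts 2588 bp away on the opposite strand and was not analysed here.

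AW112010 and Gm26697 were the most abundant of the lincRNA genes. AW112010 is a transcript induced in mouse immune cells that has been found to be translated from a non-AUG start, so its noncoding label is disputed. It measured 74.5, 72.8 and 87.7 TPM in f/f livers and 32.6, 37.0 and 30.5 TPM in ΔHSC livers, with a log2 fold change of -1.23 (SE 0.12). The groups did not overlap. Its closest coding gene with values, Ms4a8a, which encodes a membrane protein of the MS4A family, lies 11663 bp away and was higher in ΔHSC livers, with means of 0.421 ± 0.179 and 1.94 ± 0.720 TPM (SD, n = 3).

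Gm26697 measured 83.3, 79.5 and 70.5 TPM in f/f livers and 26.3, 30.9 and 25.7 TPM in ΔHSC livers, from 832 to 3926 reads. The log2 fold change was -1.49 (SE 0.12). It is read from the strand opposite to Slc27a2, a very long-chain acyl-CoA synthetase of hepatocytes, and 419 bp of its exons (23.8%) overlap exons of that gene.

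Gm5524 lies 873721 bp from the nearest coding gene, but 31.3% of its 31-base words occur on the opposite strand in transcripts of other genes. It measured 5.17, 5.45 and 5.35 TPM in f/f livers and 1.93, 1.05 and 1.39 TPM in ΔHSC livers, with a log2 fold change of -1.84 (SE 0.21). The f/f livers differed by an SD of 0.142 TPM, and the ΔHSC livers all lay below them. Gm45081, a gene of 1 exon that starts 176 bp from Selenos, a selenoprotein of the endoplasmic reticulum, measured 1.37, 1.73 and 1.07 TPM in f/f livers. In ΔHSC livers it measured 0.253, 0.343 and 0.265 TPM, which was 3 reads in each liver, and the log2 fold change was -1.93 (SE 0.23).

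Gdap10 lies within Nampt, the rate-limiting enzyme of NAD salvage, on the same strand, but shares no exon bases with it. Its level was 2.02, 2.11 and 0.999 TPM in f/f livers and 0.366, 0.118 and 0.374 TPM in ΔHSC livers, with a log2 fold change of -2.25 (SE 0.39). The third f/f liver stood below the other two, and all ΔHSC livers stood lower still. Nampt was also lower in ΔHSC livers, with means of 48.5 ± 3.25 and 9.12 ± 0.582 TPM (SD, n = 3). The part of unspliced Nampt RNA in the level of Gdap10 was not tested.

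Gm20005 was near the detection limit in f/f livers. It was listed at 0, 0 and 0.371 TPM there, which was 0, 0 and 2 reads, and at 6.29, 5.47 and 2.87 TPM in ΔHSC livers, which was 39, 25 and 17 reads. The ratio of the pooled reads, corrected for depth, was 48.7, with an exact 95% interval of 13 to 409 that covers counting error only. Each ΔHSC liver was far above each f/f liver, and the third was below the other two. Hsph1, a stress-induced chaperone of the HSP110 family, lies 5234 bp away on the opposite strand. It too was higher in ΔHSC livers, at 63.9, 46.9 and 55.4 TPM against 20.3, 18.3 and 25.3 TPM.

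Gm30692 was even among the ΔHSC livers. It measured 0.187, 0.280 and 0.347 TPM in f/f livers, from 4, 5 and 5 reads, and 5.78, 5.56 and 5.74 TPM in ΔHSC livers, from 96, 68 and 91 reads. The log2 fold change was 3.99 (SE 0.20). The ΔHSC livers differed by an SD of 0.119 TPM around a mean of 5.69. The nearest coding gene, Tcim, lies 20243 bp away on the opposite strand and was not analysed here.

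By the same fit, 6 genes came next upward, in an order that also depends on the pseudocount. Gm33424 measured 0.436, 0.524 and 0 TPM in f/f livers and 3.38, 1.78 and 2.95 TPM in ΔHSC livers, with a log2 fold change of 3.07 (SE 0.65). Gm34654 measured 0.279, 0.168 and 0.208 TPM against 2.88, 2.45 and 2.08 TPM, with a log2 fold change of 3.02 (SE 0.22). Gm34047 measured 0.247, 0.148 and 0.183 TPM against 1.27, 3.46 and 2.25 TPM, with a log2 fold change of 2.96 (SE 0.34). In each of these the ΔHSC livers lay above all f/f livers, and Gm34047 spread most among them. The f/f values rest on 3, 3 and 0 reads in Gm33424, and on 4, 2 and 2 reads in each of Gm34654 and Gm34047. With a pseudocount of 1 or 0.01 the log2 fold change of Gm33424 was 1.49 or 4.29.
Gm34921 lies 197 bp from Dusp6, a phosphatase that switches off ERK, on the opposite strand, and the 2 genes do not share a start. Gm34921 measured 0.319, 0.160 and 0.118 TPM in f/f livers and 1.58, 2.19 and 1.62 TPM in ΔHSC livers, with a log2 fold change of 2.71 (SE 0.28). Gm29685 had 2, 0 and 0 reads in f/f livers and 44, 24 and 35 reads in ΔHSC livers, a depth-corrected ratio of 61.9 with an exact 95% interval of 16.7 to 518. By reads alone AC164092.1, chosen after its values were seen, had a still larger ratio of 88.9 (exact 95% interval 15.5 to 3559), from 1, 0 and 0 reads in f/f livers and 30, 28 and 16 in ΔHSC livers. Both intervals cover counting error only and leave out variation between mice. Gm46332 had no read in any f/f liver and 3, 8 and 11 reads in ΔHSC livers, which was at least 8.81-fold higher when the f/f group was set to a floor of 3 reads. Gm46332 also shares 29.2% of its 31-base words with transcripts of other genes, and its level is uncertain for that reason.

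**Figure D2:**
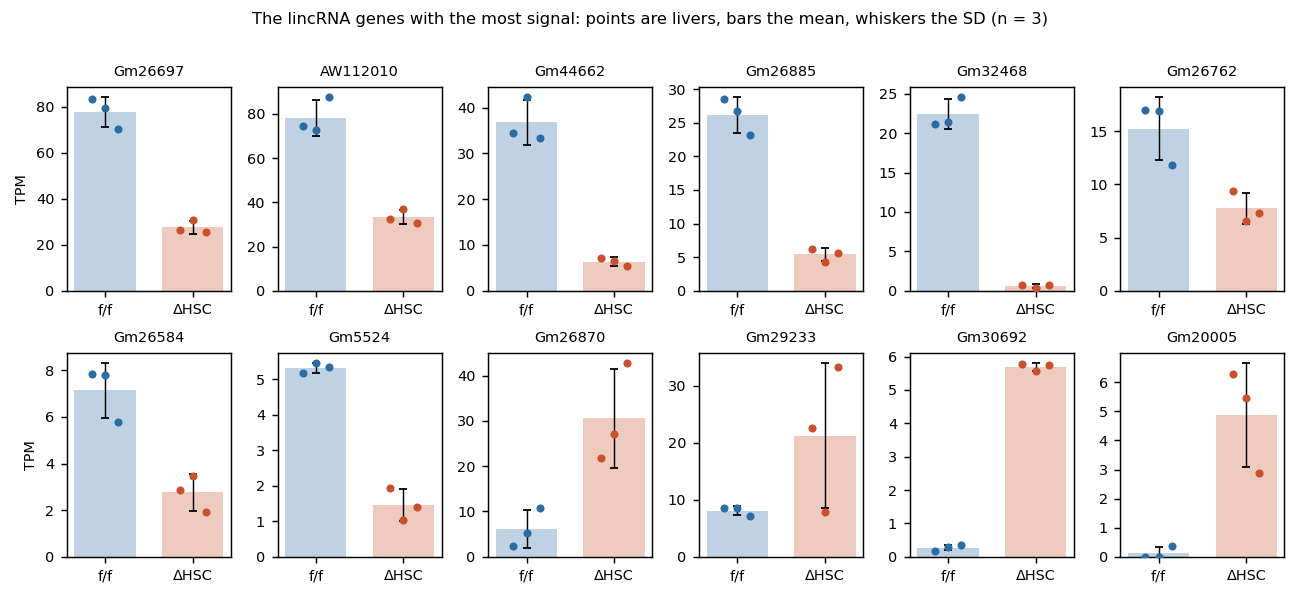
Bars show the mean TPM of 3 livers per genotype, whiskers the SD and points the livers, for 11 of the 12 lincRNA genes with a group mean of at least 5 TPM and for Gm20005. The first 8 panels are genes lower in ΔHSC livers and the last 4 genes higher, and the ΔHSC livers of Gm29233 spread from 7.92 to 33.3 TPM.

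Of the 82 genes, Mir17hg alone belongs to a list of 71 well-studied long noncoding RNA genes. It is the host transcript of the miR-17-92 cluster, a group of microRNAs that promote proliferation and survival, and 6 hairpins lie within its span at chr14:115042879-115046727. Mature microRNAs pair with their targets through bases 2 to 8, the seed, shown in capitals in the RefSeq sequences (GRCm38) of the main product of each hairpin.
mmu-miR-17-5p: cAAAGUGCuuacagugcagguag
mmu-miR-20a-5p: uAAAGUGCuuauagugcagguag
mmu-miR-18a-5p: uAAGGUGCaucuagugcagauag
mmu-miR-19a-3p: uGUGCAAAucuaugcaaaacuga
mmu-miR-19b-3p: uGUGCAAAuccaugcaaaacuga
mmu-miR-92a-3p: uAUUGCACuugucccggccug

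miR-17-5p and miR-20a-5p share 1 seed, miR-19a-3p and miR-19b-3p share another, and miR-18a-5p and miR-92a-3p have a seed of their own here. The host transcript measured 0.761, 0.863 and 1.02 TPM in f/f livers and 1.91, 1.67 and 2.0 TPM in ΔHSC livers, from 65 to 140 reads. All ΔHSC livers lay above all f/f livers, and the log2 fold change was 1.0 (SE 0.18), or 0.04 after rescaling by the median ratio. That rescaling assumes that most rows do not differ, which these selected rows do not meet, so 0.04 is no measure of the true difference. Mature microRNAs are not captured by these libraries, so the host level is no measure of them. Platr22, one of the pluripotency-associated transcripts, measured 0.0924, 0.305 and 0.206 TPM in f/f livers and 0.656, 0.648 and 0.406 TPM in ΔHSC livers. Its values rest on 4 to 22 reads, and its log2 fold change was 1.19 (SE 0.32).

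Of the 71 well-studied genes 7 had values, and their means were higher in ΔHSC livers. These 7 had passed the same selection as every row. Of all rows, 65.1% were higher and 41.6% were called higher, and nothing is read from the count. Tug1, a widely expressed transcript, had means of 1.36 ± 0.0784 and 4.15 ± 0.345 TPM in f/f and ΔHSC livers (SD, n = 3). The small nucleolar RNA hosts Zfas1 and Snhg1 had means of 0.898 ± 0.129 and 2.46 ± 0.331 TPM, and of 1.69 ± 0.269 and 3.61 ± 0.388 TPM. Those 3 and Mir17hg were called higher, and Kcnq1ot1, Mir99ahg and Trp53cor1 were not. The f/f and ΔHSC means of the genes not called were low. They were 0.156 and 0.320 TPM for Kcnq1ot1, 0.0927 and 0.201 TPM for Mir99ahg, and 0.00506 and 0.0816 TPM for Trp53cor1. The rest of the list was not analysed here.

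Exon bases were shared with a protein-coding gene by 16 of the 82 genes, by 15 of them on the opposite strand. The libraries were stranded, but whether reads were counted by strand is not stated, and without that the reads of such a pair cannot be told apart. The coding gene had values for 12 of the 16, and in all 12 it differed in the same direction as the lincRNA gene. Of the 22 genes that have a coding gene with values within 100 kb and share no exon bases with any, 15 ran in the same direction as it. Of all rows 65.1% were higher in ΔHSC livers, and of protein-coding rows 66.1%. Many pairs therefore share a direction whatever their position, and nothing is read from either count. In ΔHSC livers 8 of the 16 lincRNA genes with shared bases were higher, as were 53 of the other 66. Of all rows at or over 0.5 TPM, 51.8% were higher. The 2 sets also differed in level, with medians of the higher group mean of 3.7 and 1.2 TPM. The part of level in this contrast was not tested.

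Gm44662 shares 163 bp of its exons with coding exons on the opposite strand, 89 bp of them in Hamp2, a paralogue of the iron hormone hepcidin. It measured 34.5, 42.3 and 33.4 TPM in f/f livers and 7.25, 6.51 and 5.40 TPM in ΔHSC livers, with a log2 fold change of -2.51 (SE 0.15). Hamp2 measured 42.7, 38.4 and 35.4 TPM against 5.95, 5.05 and 5.29 TPM. The lincRNA gene stood at 80.6% to 110% of Hamp2 in f/f livers and at 102% to 129% in ΔHSC livers, and these ranges overlap. Its level was not compared with the coding exons beyond Hamp2.

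Gm26885 overlaps Pim1, a serine/threonine kinase induced by cytokines, by 488 bp, and measured 28.5, 26.7 and 23.2 TPM in f/f livers and 6.28, 4.27 and 5.66 TPM in ΔHSC livers. Pim1 measured 87.5, 83.1 and 71.2 TPM against 19.7, 14.4 and 21.2 TPM. The lincRNA gene stood at 32.1% to 32.6% of Pim1 in f/f livers and 26.7% to 31.9% in ΔHSC livers. Gm26697 stood at 28.0% to 31.6% of Slc27a2 in f/f livers and 27.0% to 29.5% in ΔHSC livers. In both pairs the lincRNA gene and its coding partner were lower in ΔHSC livers, and the share moved far less than either level.

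Gm26584 overlaps Slc7a2, a cationic amino acid transporter, by 635 bp, and measured 7.84, 7.80 and 5.78 TPM in f/f livers and 2.88, 3.48 and 1.93 TPM in ΔHSC livers. It stood at 6.37% to 8.25% of Slc7a2 in f/f livers and 5.90% to 7.92% in ΔHSC livers. Gm26762 overlaps Gpi1, a glycolytic isomerase, and measured 17.0, 16.9 and 11.8 TPM against 9.35, 6.58 and 7.29 TPM. Gm10532 overlaps Ctif, a translation factor, and measured 5.39, 5.60 and 5.09 TPM against 3.14, 2.56 and 2.13 TPM. In all 3 genes the f/f livers lay above the ΔHSC livers, and Gpi1 and Ctif were not analysed here. 2610020F03Rik shares 54 bp with Map3k13, a kinase upstream of JNK, and had 19, 14 and 6 reads against 1, 3 and 3.

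Gm29233 was the exception to the separation of the groups. It measured 8.51, 8.63 and 7.11 TPM in f/f livers and 22.5, 7.92 and 33.3 TPM in ΔHSC livers, and the second ΔHSC liver lay inside the f/f range. Of its 281 bp of exon, 208 bp overlap Thbs1, the matrix glycoprotein thrombospondin 1. Thbs1 measured 5.95, 6.33 and 6.23 TPM in f/f livers and 14.4, 8.33 and 22.3 TPM in ΔHSC livers, with the second ΔHSC liver again the lowest. The log2 fold change of Gm29233 was 1.16 (SE 0.45), 1.75 without that liver and 0.13 after rescaling by the median ratio. The rescaling assumes that most rows do not differ, which these selected rows do not meet. Leaving out any 1 of the other 5 livers gave 0.72 to 1.21 and ended the call.

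Large parts of 3 further genes lie on the far strand of a coding gene. Gm26735 has 98.8% of its exon bases opposite Sox4, a transcription factor of progenitor cells, Gm26675 has 100% opposite Zfp597, a zinc finger protein, and Gm26541 has 48.4% opposite Mob3a, a kinase adaptor. Gm26735 stood at 90.5% to 142% of Sox4 in f/f livers and at 105% to 129% in ΔHSC livers. Gm26675 stood at 123% to 151% of Zfp597 and at 141% to 151%. In both pairs the shares overlapped between genotypes while both levels were higher in ΔHSC livers.

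**Figure D3:**
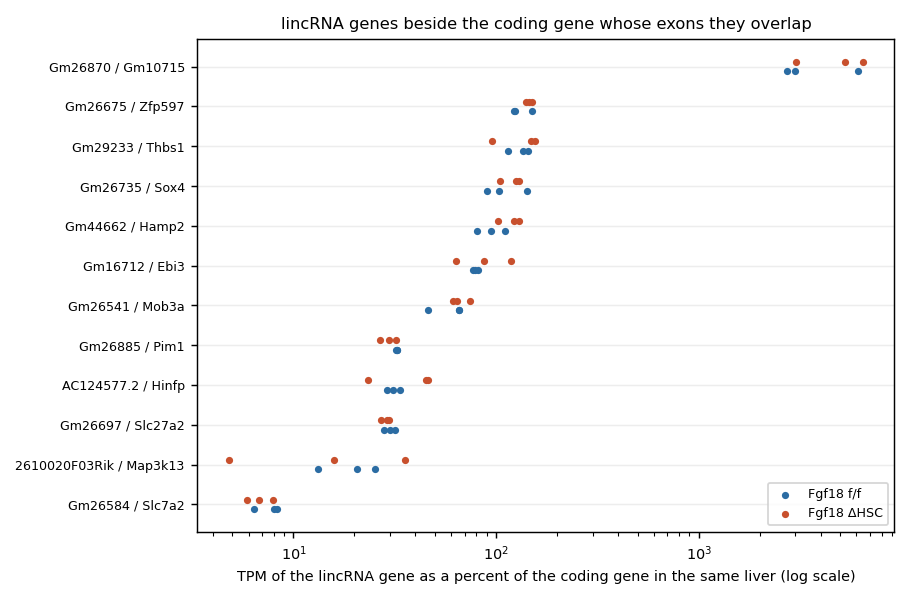
For the 12 lincRNA genes whose overlapping coding gene had values, the TPM of the lincRNA gene is given as a percent of the coding gene in the same liver (logarithmic axis), with f/f livers in blue and ΔHSC livers in red. Gm26697 stays at 27.0% to 31.6% of Slc27a2 over all 6 livers, while the share of 2610020F03Rik, which rests on few reads, runs from 4.81% to 35.7%.

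Gm26870 was the most abundant of the 61 higher genes. It measured 2.44, 5.22 and 10.7 TPM in f/f livers and 21.7, 27.1 and 42.8 TPM in ΔHSC livers, from 176 to 2282 reads. The groups did not overlap, but the f/f livers spread widely, with a coefficient of variation (CV) of 68.5%. It spans chr9:3000282-3038313 at the centromeric end of its chromosome, and 75.2% of its 31-base words occur on the opposite strand in transcripts of other genes there. Gm10722, a predicted coding gene of the same stretch, measured 6.02, 15.6 and 30.2 TPM in f/f livers and 45.8, 75.5 and 102 TPM in ΔHSC livers, in the same order of livers. Reads from such repeated sequence cannot be placed on 1 copy, and the level of Gm26870 is uncertain for that reason.

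Neighbours without shared exons ran in either direction. Gm26799 and Gm17518 start 91 and 108 bp from Rad18, a ubiquitin ligase of damage tolerance, and Mis18a, a centromere factor, and all 4 genes were higher in ΔHSC livers. Gm17518 had means of 0.0735 ± 0.0840 and 0.560 ± 0.206 TPM and Mis18a of 0.514 ± 0.152 and 1.81 ± 0.402 TPM (SD, n = 3). C730027H18Rik lies 9037 bp from Bicc1, an RNA-binding protein, and was lower at 0.523 to 0.668 TPM against 0.262 to 0.294 TPM, while Bicc1 was higher. Gm6980 lies 11645 bp from Fdx1, a mitochondrial ferredoxin, and was higher while Fdx1 was lower, with means of 27.3 ± 0.686 and 13.4 ± 0.640 TPM.

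Pairs of lincRNA genes within 100 kb of each other came to 5. AI480526, Gm38102 and 4932422M17Rik form 1 locus between Setd1b and Rhof on chromosome 5, with AI480526 on the minus strand across the other two, and all 3 were higher. AI480526 measured 0.379, 0.399 and 0.470 TPM in f/f livers and 1.29, 1.81 and 1.25 TPM in ΔHSC livers. Gm34047 and 9130015A21Rik overlap on opposite strands near Ahr, the aryl hydrocarbon receptor, and were both higher, with the same limit on their reads. AC153821.2 and Gm34921 lie 30070 bp apart on the same strand beside Dusp6 and ran against each other, AC153821.2 with 4.23, 3.45 and 3.20 TPM in f/f livers and 1.65, 2.1 and 1.40 TPM in ΔHSC livers.

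The 82 genes lie on 19 chromosomes, with 12 on chromosome 10 and 11 on chromosome 9. Their joined exons measured 257 to 16543 bp with a median of 1450 bp, against 1038 bp over all 5854 lincRNA genes of the annotation. They have 1 exon block in 9 cases, 2 in 29 and 3 or more in 44. A distance of over 10 kb separates 36 of them from any coding gene, and 19 overlap the span of one. GENCODE types 79 as lincRNA and 3 as antisense. The median GC content of their longest transcripts was 47.3%, against 49.9% for the protein-coding rows. A reading frame of at least 100 codons was found in 20, the longest with 918 codons in Gm37494 and the next with 410 in BC002059. More than 10% of the 31-base words recurred in sense transcripts of other genes in 9, and no such word recurred on either strand in 21. Gm37494 measured 0.185, 0.258 and 0.285 TPM in f/f livers and 0.632, 0.724 and 0.617 TPM in ΔHSC livers.

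Livers of 1 genotype varied more in the higher than in the lower genes, but the 2 sets also differed in level. Of the 34 genes whose higher group mean was 0.5 to 1 TPM, 32 were higher, and of the 12 of at least 5 TPM 3 were. The part of counting error at few reads in the CVs was not tested. The median CV was 29.7% in f/f and 29.0% in ΔHSC livers over the 61 higher genes, and 13.2% and 20.5% over the 21 lower genes. The CV was larger in ΔHSC than in f/f livers in 37 of the 80 genes that had both. Among the 61 higher genes, each ΔHSC liver was the highest of its group in 19 to 21 genes, and the lowest in 17 to 23. Among the 21 lower genes the third ΔHSC liver was the lowest of its group in 10 and the second in 9.

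Cell type markers with values had passed the same selection as the lincRNA genes, so a difference in each of them was fixed in advance. Of all rows, 41.6% were called higher and 30.0% lower. Of 7 stellate cell markers 5 had values and 3 were called higher, with a summed TPM of 1.67 to 1.93 in f/f livers and 5.50 to 7.87 in ΔHSC livers. The 3 erythroid markers of 4 listed that had values, all globin genes, summed to 61.1 to 102 and 355 to 467 TPM. For macrophages 3 of 4 markers summed to 9.25 to 10.4 and 24.1 to 39.8 TPM, 2 of 6 neutrophil markers to 6.16 to 7.69 and 9.80 to 27.1 TPM, and 2 of 4 B or plasma cell markers to 3.19 to 4.80 and 9.96 to 15.6 TPM. For sinusoidal endothelium 2 of 5 markers summed to 11 to 13.1 and 22.2 to 34.4 TPM, and the sum of 3 of 4 cholangiocyte markers was lower, at 11.9 to 18.2 and 6.73 to 11.6 TPM, with 1 of them called higher and 1 lower. None of the hepatocyte, Kupffer cell and T or NK cell markers listed had values. The part of cell composition in the lincRNA levels was not tested.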

How the data were processed

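Whole livers of 3 Fgf18 f/f and 3 Fgf18 ΔHSC mice were analysed, grouped by their labels. RNA was isolated with TRIzol and stranded mRNA libraries were sequenced. Per the labels and the study's methods, reads were trimmed with cutadapt 2.5, aligned to GRCm38 (mm10) with HISAT2 2.1.0 in its stranded mode and counted with featureCounts 1.6.3, whose strand setting is not given in the sources used here. The authors deposited 1 table with a value per gene and liver, whose unit is not stated and was taken here as TPM. Value times exon length (GENCODE M21, 3196 of 3201 rows matched) gave whole reads, within 0.02, for over 92% of values, with a divisor common to all genes of a liver. That would also hold for values scaled by the number of reads. The fractional parts of the divisors were 0.0299 to 0.622, whereas a number of reads would be whole. The log2 fold changes, p-values and adjusted p-values of the authors' DESeq2 comparison in that table were not used, beyond noting that every row passed an absolute log2 fold change of 1 and an unadjusted p of 0.05.

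All rows were fitted with limma 3.58.1 in R 4.3.3 (lmFit, then eBayes with trend) after a log2(TPM + 0.1) transform, with Benjamini-Hochberg adjustment over 3201 rows. Fold changes are on that scale, which understates the change of low genes. The fit was tested on simulated data. Nothing in the labels says that replicates were more than separate livers. Library totals are unknown, so the recovered reads alone set the precision. Ratios with at most 3 reads in the f/f group carry exact binomial (Clopper-Pearson) intervals. These are on reads pooled over the livers of a genotype and leave out variation between mice.

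The genes and lists were chosen with earlier results of these data known, and values of this comparison had been seen in the supplement. Individual genes were named by rule: Gm32468 and Gm20005, a group mean of at least 5 TPM, the 8 largest fold changes each way, symbols that are names, 3 genes inside and 3 outside the 0.5 TPM limit, and their coding neighbours. Others named to describe an overlap, a neighbour, a shared locus or a reading frame were chosen after their values were seen. Sequences came from GENCODE M21 and RefSeq, overlaps from the annotation, and shared 31-base words from all GENCODE transcripts.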

Additional observations from a re-analysis of the deposited data

How the results depend on the processing

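Counts depended mainly on the pseudocount, the scaling and the choice of genes. With a pseudocount of 1, 12 genes were called higher and 8 lower, with a median log2 fold change of 0.56, since a larger pseudocount shrinks differences at low TPM. A pseudocount of 0.01 gave a median of 1.54. Among rows with a mean of at least 1 TPM, 34 of the 82 genes remained in the fit, with 18 called higher and a median of 1.01. After rescaling by the median ratio, 26 were called higher and 21 lower, and the median was 0.44. That rescaling assumes that most listed rows do not differ, which a table of selected rows does not meet. A voom fit to reads, possible for 76 genes and chosen after seeing the data, made 58 calls upward and 17 downward, with a median of 1.57. A limit of 1 TPM for the genes gave 28 called higher, and a limit of 0.25 TPM gave 92. Without the 16 genes that share exon bases with a coding gene, also added after the data were seen, 10 were called lower and the median was 1.46. Leaving out each liver in turn gave 53 to 57 called higher, 14 to 20 called lower and a median of 1.29 to 1.37. Same-numbered livers were not paired, with correlations of their deviations of 0.0574, 0.00597 and 0.0307, and the fit with the replicate block called 58 higher and 17 lower with a median of 1.31, so the block moved no count of calls. Without the mean-variance trend, or with lincRNA rows alone, the counts were also 58 and 17. None of the 27 genes named by rule changed direction in any fit that held it, and 9 lost their call with a pseudocount of 1. After rescaling, Gm29233, Mir17hg, Platr22 and E430024I08Rik lost theirs, at 0.13, 0.04, 0.45 and 0.90. Mir17hg, at the fold limit, was 0.91 to 0.99 and not called without f/f liver 1 or 2 or ΔHSC liver 1 or 3. Platr22 was 0.90 and not called without f/f liver 1, and Gm10532 was -0.99 or -0.89 without f/f liver 2 or ΔHSC liver 3. Depth limits the low genes most, as 24 of the 76 with whole reads had under 10 reads in every f/f liver. No group had enough livers for a single one to be tested as an outlier.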
